A study of Homo sapiens with 45 samples.

Results

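The 9 genes described here, EXO1, BLM, BRCA1, BRCA2, RAD54B, RAD54L, TOPBP1, MRE11 and CHEK1, encode proteins of homologous recombination and of the checkpoint that responds to damaged DNA and stalled replication forks. They were chosen by name, and every probe set paired with 1 of these names alone was taken. Of the 9 genes, 8 were measured, out of 19775 genes with such a probe set on the Affymetrix U133 plus 2.0 array. No probe set was paired with BRCA2 in the table of gene names used here, so BRCA2 was not analysed. The 8 genes had 14 probe sets, and each gene was represented by the one with the highest mean over all 45 arrays. These were 204603_at for EXO1, 205733_at for BLM, 204531_s_at for BRCA1, 219494_at for RAD54B, 204558_at for RAD54L, 202633_at for TOPBP1, 205395_s_at for MRE11 and 205394_at for CHEK1. Another 2 probe sets, paired with both FSBP and RAD54B, were not used.

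The arrays hold RNA from A375 cells, an established human melanoma line kept in serum-containing DMEM. According to the study's methods this medium was exchanged for opti-MEM at transfection, so transfected and untreated cells may also differ in medium. In 39 arrays the cells had been transfected 48 h earlier with a pool of siRNAs against a single gene, in 3 with a control siRNA (siRNA-CONTROL), and in 3 they were untreated. Each targeting siRNA pool has 1 array, so no value for a single siRNA has a replicate, and precision below is limited by how few arrays there are. The sample labels and the study's methods give different siRNA concentrations. The study placed the targeting arrays in batches KD1 (9 arrays), KD2 (23 arrays) and KD3 (7 arrays) but names no batch for the control siRNA or the untreated arrays. Nothing says that the 3 arrays of a replicated group came from separate experiments, so p-values measure only the spread between these arrays. Of 9 melanocyte lineage markers measured, 3 were above the noise limit, namely SOX10, S100B and MITF, while the pigment genes TYR, TYRP1, PMEL and MLANA were not. None of 11 markers of blood, epithelial, stromal and endothelial cells was above this limit, with medians from 3.42 to 7.52 on the log2 scale.

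Untreated array 3 lay close to control siRNA array 3 in every probe set. None of 54675 probe sets in untreated 3 departed by more than 10% from control siRNA 3. The SD of their ratio stayed between 0.0573 and 0.0584 from the dimmest to the brightest probe sets. For untreated 1 against control siRNA 1 it ran from 0.158 to 0.504 over the same range of signal. In no other pair of arrays did more than 62.0% of probe sets lie within 10% of each other. Untreated 3 may therefore not be an independent replicate, although it is counted in n below. The comparisons that use these arrays are also given without them.

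Homologous recombination repairs broken DNA by copying the sister chromatid, so it works mainly in S and G2 phase, when a sister is present. The nuclease MRE11 starts to trim the broken end, and the exonuclease EXO1 and the helicase BLM extend the single-stranded tail. BRCA1 and BRCA2 bring the recombinase onto that tail, and the motor proteins RAD54L and RAD54B help it to invade the intact copy. TOPBP1 switches on the kinase ATR at exposed single-stranded DNA, and ATR in turn activates CHEK1, the kinase that holds back entry into mitosis and limits origin firing. Many genes of this kind are transcribed from late G1 phase on by E2F factors, and many genes of G2 phase carry a CCAAT box or a cell cycle homology region in their promoter. In RNA from whole cultures, fewer cells in a phase of the cell cycle and less RNA per cell cannot be told apart.

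Because the genes varied together across the arrays, their promoters were searched for 3 motifs on both strands in the 250 bases before each annotated start (RefSeq, GRCh38.p14). The windows of EXO1, BLM and CHEK1 are shown since they hold the E2F motif or the most CCAAT boxes, and capitals mark those matches (CCAAT appears as ATTGG on the other strand). The windows lie at chr1:241848481-241848730 for EXO1, chr15:90717096-90717345 for BLM and chr11:125626106-125626355 for CHEK1, all on the plus strand, and each ends at the base before the start.
EXO1: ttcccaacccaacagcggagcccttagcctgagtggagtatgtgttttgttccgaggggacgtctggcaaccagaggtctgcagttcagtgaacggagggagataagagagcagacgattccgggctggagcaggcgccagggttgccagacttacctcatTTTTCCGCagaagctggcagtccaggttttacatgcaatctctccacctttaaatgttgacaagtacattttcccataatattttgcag
BLM: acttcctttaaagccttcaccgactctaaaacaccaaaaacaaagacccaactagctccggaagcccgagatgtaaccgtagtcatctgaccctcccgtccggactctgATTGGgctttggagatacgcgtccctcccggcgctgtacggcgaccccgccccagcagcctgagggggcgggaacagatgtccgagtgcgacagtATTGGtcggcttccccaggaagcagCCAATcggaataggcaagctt
CHEK1: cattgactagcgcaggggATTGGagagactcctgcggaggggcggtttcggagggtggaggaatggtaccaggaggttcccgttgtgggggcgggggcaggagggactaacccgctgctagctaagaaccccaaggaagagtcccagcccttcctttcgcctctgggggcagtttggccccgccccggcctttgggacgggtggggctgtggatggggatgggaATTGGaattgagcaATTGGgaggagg

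Of the 9 genes, 8 had a window, BRCA2 among them, and RAD54B had none. The letters TTTNNCGC, used for the E2F motif, were found in 1 of these 8 genes, EXO1, against 7.15% of 27305 genes with a window. In EXO1 the match began 89 bases before the start. Other forms of E2F site were not searched, so genes with no match here may still hold one. The other window of EXO1, upstream of this one, held none of the 3 motifs, and the E2F match lies downstream of the start that belongs to it. CCAAT was found in 5 of 8, namely BLM, BRCA1, CHEK1, MRE11 and RAD54L, against 37.0% of all genes. In BLM its 3 matches began 141, 46 and 21 bases before the start, and in the window shown for CHEK1 232, 26 and 12 bases before it. Each other window of CHEK1 held 1 CCAAT, and the matches at 26 and 12 bases lie downstream of the starts of those windows. The letters TTTGAA, used for the cell cycle homology region, were in none of the 8 genes and in 16.1% of all genes. No match of one motif overlapped a match of another in these windows, and a match describes the sequence only.

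Differences below are on the log2 scale, as the level in an array less the median of its own batch, and 0.5 or more in one direction (1.41-fold) was counted as past the fold. Across the 39 targeting arrays, 12 of 312 values of the 8 genes were lower past the fold and 0 were higher, and 1 of the 12 was CHEK1 in its own siRNA array. Over all genes, 0.612% of values were lower and 0.649% higher past the same fold. The balance depends on the reference: with the average control siRNA array as zero, 12 values were lower and 20 higher, and 14 lower and 16 higher without control siRNA array 3. All 12 values lay in 4 arrays, those of siRNA against MAP2K1, CHEK1, MITF and PCNA, and in 35 of 39 arrays no member was past the fold. All 8 genes were below the batch median in 7 arrays and all 8 above it in 6. Of the 8 genes, only TOPBP1, MRE11 and CHEK1 had a median above the noise limit of 8.59, which 24.3% of all genes passed. MRE11 passed it by 0.0061 and EXO1 missed it by 0.08, as the members closest to it on either side.

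**Figure D1:**
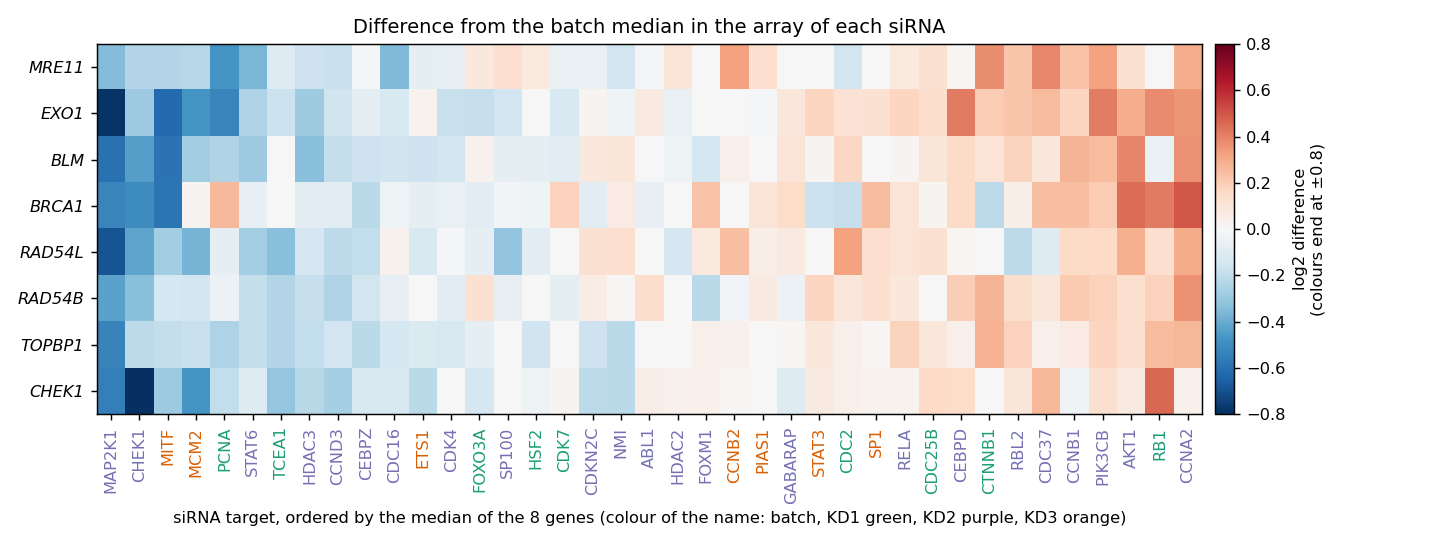
Log2 difference from the batch median (colour; scale ends at ±0.8, below which only CHEK1 in its own array falls) of 8 genes (rows) in 39 siRNA arrays (columns, ordered by the median of the 8 genes, names coloured by batch). The MAP2K1 array stands at the low end with a median of -0.54 and the CCNA2 array at the high end with 0.32. The BRCA1 row departs from the others in several columns, among them MCM2, PCNA, CTNNB1 and CDK7.

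Among the nuclease and helicase genes, the levels of EXO1 varied most. In KD2, EXO1 ran from 7.85 to 9.05 with a median of 8.63, in KD1 from 7.87 to 8.77 with a median of 8.40, and in KD3 from 7.37 to 8.16 with a median of 7.99. The lowest difference was that of the MAP2K1 array at -0.79, followed by MITF at -0.62 and PCNA at -0.53, and the highest were CEBPD at 0.42 and PIK3CB at 0.41. Those 3 low arrays each come from a different batch, and in each EXO1 was the lowest array of its batch. BLM was lowest with MAP2K1 siRNA (-0.60) and MITF siRNA (-0.59), and highest with AKT1 siRNA (0.39). MRE11 had a different order of arrays: PCNA (-0.47), STAT6 (-0.37) and CDC16 (-0.35) were lowest, and CDC37 (0.39), CTNNB1 (0.37) and CCNB2 (0.32) highest. MRE11 was not past the fold in any array. Its other probe sets, 242456_at and 211334_at, had means of 3.69 and 3.46, far below the noise limit, and followed the main one with a rho of 0.39 and 0.20.

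BRCA1, the ubiquitin ligase that promotes resection and recombinase loading, was lowest after siRNA against MITF (-0.58), MAP2K1 (-0.53) and CHEK1 (-0.50). It was highest after siRNA against CCNA2 (0.50, just short of the fold), AKT1 (0.45) and RB1 (0.42). BRCA1 stood apart from the other genes in several arrays, among them those of the replication proteins PCNA and MCM2. In the PCNA array BRCA1 was at 0.26 while the other 7 genes ran from -0.53 to -0.05, and in the MCM2 array it was at 0.02 while they ran from -0.48 to -0.16. It also did so in the CTNNB1 array, at -0.21 against 0 to 0.37, and in the CDK7 array, at 0.18 against -0.12 to 0.02. Its dimmer probe set, 211851_x_at, followed the main one with a rho of 0.58 over the 39 arrays. That probe set was at -0.44 in the MAP2K1 array, -0.38 in the CHEK1 array and -0.17 in the MITF array. Its values in the PCNA, MCM2, CTNNB1 and CDK7 arrays are not given here. The departures of BRCA1 there rest on the main probe set alone, which was below the noise limit.

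The RAD54 genes encode related DNA translocases of the SWI2/SNF2 family. RAD54L was lowest with MAP2K1 siRNA (-0.69), then with CHEK1 (-0.42) and MCM2 siRNA (-0.37), and highest with CDC2 siRNA (0.32); CDC2 is the older name of CDK1. RAD54B was also lowest with MAP2K1 (-0.43) and CHEK1 siRNA (-0.33), and highest with CCNA2 siRNA (0.36). RAD54B was among the genes of smallest spread, with an SD of 0.17 over the 39 centred arrays, beside 0.17 for TOPBP1, 0.22 for RAD54L and 0.28 for EXO1. RAD54B was never past the fold.

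In the checkpoint pair, TOPBP1 was at -0.53 in the MAP2K1 array, and its next lowest value was only -0.24, in the PCNA array. Its highest values were 0.28 with CTNNB1 siRNA and 0.26 with CCNA2 siRNA. CHEK1 was lowest in the array of its own siRNA, then in those of MAP2K1 (-0.55) and MCM2 (-0.47), and highest in that of RB1 siRNA (0.46). RB1 encodes the protein that restrains E2F factors.

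CHEK1 is the only member that was itself a target. The study selected siRNA pools for lowering their target and gives that lowering as measured by microarray, so the level of CHEK1 there is a description and no independent check of the label. Its level there was 7.68, against 8.41 to 9.22 in the other 22 arrays of KD2, a difference of -1.28 from the batch median, or 2.43-fold lower. It was the lowest of the 23 arrays and of all 45. The probe sets 205393_s_at and 238075_at were at -1.54 and -1.31 and were also the lowest of their batch. The 4th probe set, 229423_at, was at -0.07, in position 10 of 23, and its mean of 5.47 lies far below the noise limit.

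The other 7 genes were all below the batch median in the CHEK1 array too. BRCA1 was at -0.50, BLM at -0.44, RAD54L at -0.42, RAD54B at -0.33, EXO1 at -0.29, MRE11 at -0.24 and TOPBP1 at -0.21. Of these, BRCA1 alone was past the fold, against 0.268% of all genes lower past it in that array. The median of all 8 genes was -0.38, and without CHEK1 itself -0.33. The p53 target CDKN1A, an inhibitor of cyclin-dependent kinases, was at 2.08 in this array, the highest of 39, where the others ran from -0.34 to 1.01. Of 12 measured p53 target genes, all were higher in the CHEK1 array, 9 past the fold, with a median of 0.70, against 0.238% of all genes higher past it.

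MAP2K1 encodes MEK1, the kinase that activates ERK. Its array had the lowest median of the 8 genes, at -0.54, and 6 of the 8 were lower past the fold, against 1.77% of all genes. Among the 4213 genes within the signal range of the members the share was 3.61%. The values ran from EXO1 at -0.79 to MRE11 at -0.35. The array has no replicate, and its values are given as a description. Of the list for DNA replication and G1/S, all 39 genes measured were lower there, with a median of -0.49, and so were the 36 genes of G2/M and mitosis, with a median of -0.48. MITF is the master regulator of the melanocyte lineage. In its siRNA array all 8 members were lower with a median of -0.28, and EXO1, BLM and BRCA1 were past the fold (0.86% of all genes). There the mitosis list was lower than the replication list, at -0.56 against -0.40.

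The arrays of siRNA against the replication proteins MCM2, a subunit of the replicative helicase, and PCNA, the sliding clamp, came next, with medians of -0.25 and -0.22. In each, 7 of 8 genes were below the batch median, with EXO1 the lowest at -0.48 and -0.53. Members past the fold numbered 0 of 8 with MCM2 siRNA (0.506% of all genes) and 1 of 8 with PCNA siRNA (1.5%). The PCNA array set the cell cycle lists apart: 36 of 39 replication genes were lower, with a median of -0.25, while the median of the mitosis list was 0.00, with 15 of 36 lower.

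At the other end, the CCNA2 array had a median of 0.32 with all 8 genes higher. CCNA2 encodes cyclin A2, which acts in S and G2 phase. BRCA1 was at 0.50, RAD54B at 0.36, BLM at 0.36, EXO1 at 0.35, RAD54L at 0.29, MRE11 at 0.29 and TOPBP1 at 0.26, and CHEK1 was at 0.04. The mitosis list was at 0.03 and the replication list at 0.23 in that array. Of the 12 p53 targets, 6 were higher past the fold, against 1.2% of all genes, with GDF15 the highest at 2.29.

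The RB1 array followed with a median of 0.22, where CHEK1 (0.46), BRCA1 (0.42) and EXO1 (0.38) were the highest and BLM was at -0.05. With no batch centring its median was 0.09. The AKT1, PIK3CB and CCNB1 arrays had medians of 0.21, 0.19 and 0.19. With the 3 genes above noise alone, the AKT1 array was at 0.12 and the CCNB1 array at 0.06. AKT1 and PIK3CB encode kinases of PI3K signalling and CCNB1 the mitotic cyclin B1. In each of these arrays, both cell cycle lists lay above their batch median, from 0.16 to 0.31. For scale, the pooled SD of the 8-gene median among control siRNA and untreated arrays was 0.15, and 0.06 without the near-identical arrays numbered 3.

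**Figure D2:**
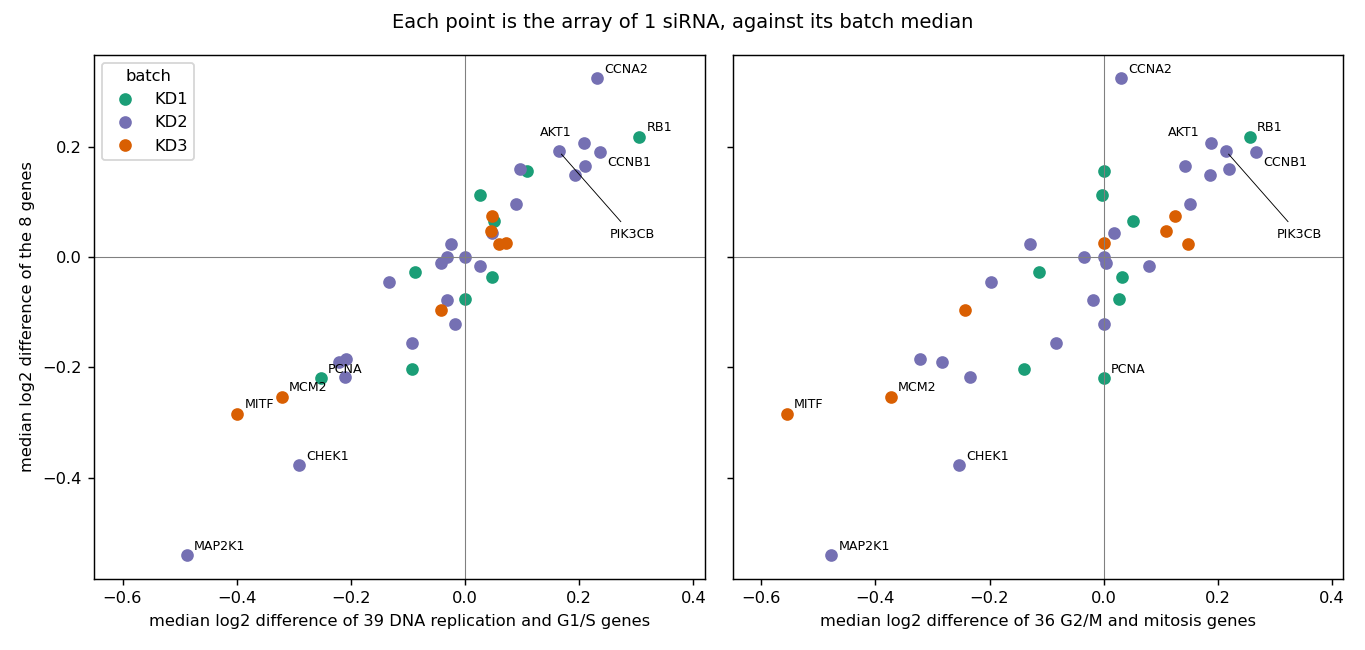
Median log2 difference of the 8 genes (y axis) against that of 39 DNA replication and G1/S genes (left) and 36 G2/M and mitosis genes (right), 1 point per siRNA array coloured by batch, with the 5 lowest and 5 highest arrays named. The PCNA and CCNA2 arrays, at -0.22 and 0.32 for the 8 genes, lie at 0.00 and 0.03 for the mitosis list.

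Over the 39 batch-centred arrays the 8 genes correlated positively in all 28 pairs, with a median Spearman's rho of 0.67 (0.42 to 0.87). In 23 of 28 pairs rho was 0.5 or more. Of all genes, the share at that rho was 5.71% with TOPBP1, 4.74% with CHEK1, 4.59% with MRE11, 4.32% with EXO1, 4.07% with RAD54B, 3.66% with BLM, 2.69% with RAD54L and 1.15% with BRCA1. These correlations are given as a description: the arrays share a cell line and their batches, and the genes were chosen with earlier correlations known. EXO1 and TOPBP1 were the closest pair (rho 0.87), followed by TOPBP1 and CHEK1 (0.84) and EXO1 and RAD54B (0.83). BRCA1 was the least related, with a median rho of 0.47 with the other genes and 0.42 with both RAD54B and MRE11. Without the MAP2K1 and CHEK1 arrays, which lie farthest from the median, 19 of 28 pairs were at 0.5 or more.

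Batches differed in this respect. In KD2 alone the median rho was 0.78, and the pairs of BRCA1 lay between 0.72 and 0.85. In KD1, with 9 arrays, the median was 0.48, 13 of 28 pairs reached 0.5, and 5 pairs were negative, all with BRCA1, the lowest being BLM and BRCA1 at -0.73. In KD3, with 7 arrays, the median was 0.73, and the pairs of BRCA1 lay between 0.14 (EXO1 and CHEK1) and 0.54 (MRE11). The difference between batches was not tested, and different siRNAs lie in each. Without centring on batches the median was 0.59, with 17 of 28 pairs at 0.5 or more, and RAD54B then had a rho of 0.03 with TOPBP1, 0.07 with BLM and 0.15 with EXO1.

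**Figure D3:**
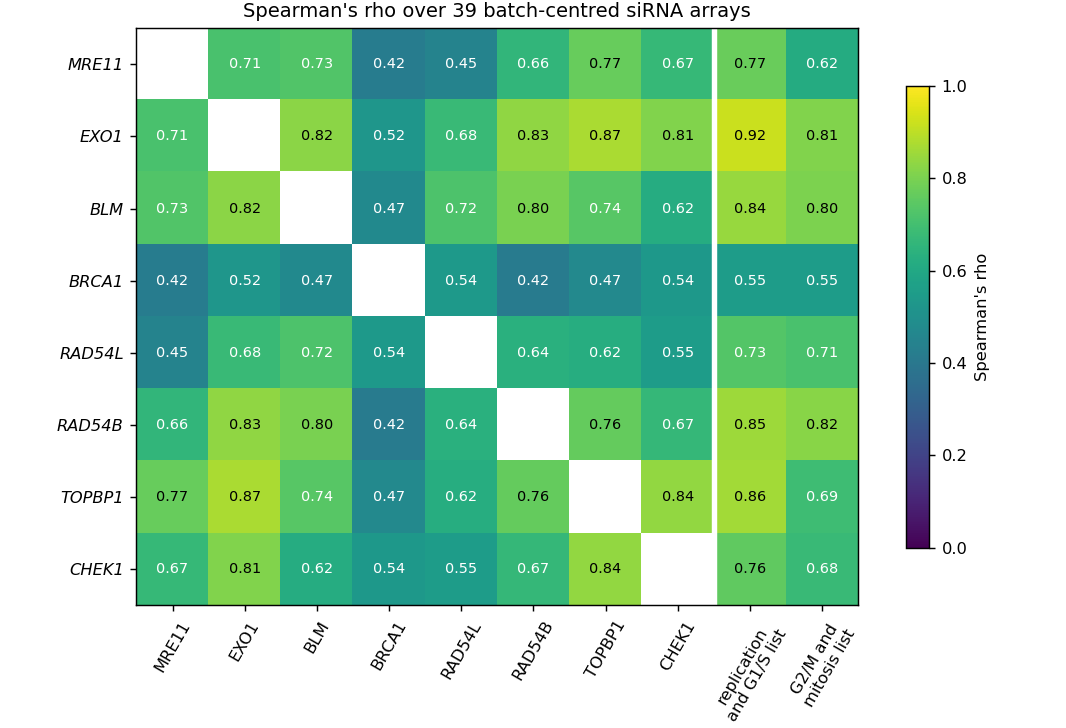
Spearman's rho over 39 batch-centred arrays between the 8 genes and, in the last 2 columns, between each gene and the per-array median of the DNA replication and G1/S list and the G2/M and mitosis list. The BRCA1 row and column hold the low values, from 0.42 to 0.54 with the other genes, and EXO1 with the replication list the highest, 0.92.

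Each gene was next set beside the cell cycle lists, none of which contains a member. The rho with the replication list ran from 0.55 (BRCA1) to 0.92 (EXO1), and with the mitosis list from 0.55 (BRCA1) to 0.82 (RAD54B). For all 8 genes the former was the higher, by 0.17 for TOPBP1, 0.16 for MRE11 and 0.11 for EXO1, but by under 0.01 for BRCA1. In KD2 alone this held for 7 of 8 genes, RAD54B being the exception by 0.0012, and without the MAP2K1 and CHEK1 arrays for 7 of 8, BRCA1 being the exception at 0.482 against 0.483. Without batch centring it also held for 7 of 8, and for RAD54B the rho was 0.21 with replication and 0.52 with mitosis. The size of rho depended on the centring. Without it the rho with mitosis was lower for every gene, such as 0.25 for BLM and -0.01 for TOPBP1. With replication it fell to 0.35 for MRE11 and 0.41 for CHEK1, and only BRCA1 rose, to 0.64.

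The 3 nearest of all genes by rho were taken for each member. For EXO1 they were RFC3, a subunit of the loader of PCNA (0.94), FIGNL1 (0.91) and USP1, the deubiquitinase of PCNA and FANCD2 (0.89). For BLM they were AUNIP (0.89), the centromere gene CENPU (0.88) and FANCI (0.88). For TOPBP1 they were DTL (0.89), FIGNL1 (0.88) and EXO1 (0.87), and for CHEK1 DDIAS (0.86), TOPBP1 (0.84) and DBF4 (0.83), the activator of the CDC7 kinase. For RAD54B they were the spindle gene NUSAP1 (0.89), RAD1 of the checkpoint clamp (0.88) and CENPU (0.86). RAD54L was closest to CDCA5 (0.79), which encodes sororin, to the condensin gene NCAPH (0.79) and to RRM2 (0.78). MRE11 was closest to the splicing gene SNRPD1 (0.83), then to MCM10 (0.83) and SLF1 (0.81). BRCA1 had the lowest nearest value, 0.76 with MDC1, a mediator of the damage response, before ATAD2 (0.71) and KNL1 (0.70). Among the nearest genes named here, AUNIP, DDIAS, NCAPH, MDC1, KNL1 and EXO1 were below the noise limit.

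Other genes of the same pathways were taken from lists, and the median rho of each gene with the 8 members was compared with that of all genes, of which 3.32% reached 0.5. Among 27 other recombination genes 12 reached it. FIGNL1 (0.78), BARD1, the partner of BRCA1 (0.73), and RMI1, a partner of BLM (0.72), were the highest, and RAD51B (-0.25), SLX4 (-0.07) and NBN (0.01) the lowest. NBN is the third subunit of the MRE11 complex, and its subunit RAD50 was at 0.35. Among 16 other checkpoint genes 8 reached 0.5, led by TIPIN (0.75), CDC25C (0.70) and RAD1 (0.70). The lowest of them were ATM (-0.25), TP53BP1 (-0.07) and RAD17 (0.04). Above the noise limit were 10 of the 27 recombination genes and 9 of the 16 checkpoint genes. Of those named, BARD1, RAD50, RAD51B, SLX4, CDC25C, ATM and RAD17 were below it, RAD51B with a mean of only 4.50.

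Of 9 Fanconi anaemia pathway genes, which act on DNA crosslinks, 7 reached 0.5. FANCI (0.77), UBE2T (0.71) and FANCB (0.67) were the highest and FANCF (0.20), FANCC (0.39) and FANCE (0.52) the lowest. Of 9 end joining genes, the route that needs no sister chromatid, 1 reached 0.5, XRCC4 (0.51), followed by PARP1 (0.48) and XRCC1 (0.45), while LIG4 (-0.01), LIG3 (0.23) and DCLRE1C (0.24) were the lowest. POLQ (0.64), which acts in a form of end joining, was counted with the other recombination genes, so these counts depend on how the lists were drawn. Above the noise limit were 3 of the 9 Fanconi genes and 4 of the 9 end joining genes. FANCB, with a mean of 5.53, was below it, as were the 3 lowest genes of each of these lists. The difference between the lists was not tested. In the MAP2K1 array the Fanconi list had a median of -0.46 with 9 of 9 lower, the other checkpoint genes -0.26 with 13 of 16 lower, the other recombination genes -0.20 with 21 of 27 lower, and the end joining genes -0.06 with 7 of 9 lower. In the CCNA2 array the same lists stood at 0.30, 0.20, 0.27 and 0.06.

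**Figure D4:**
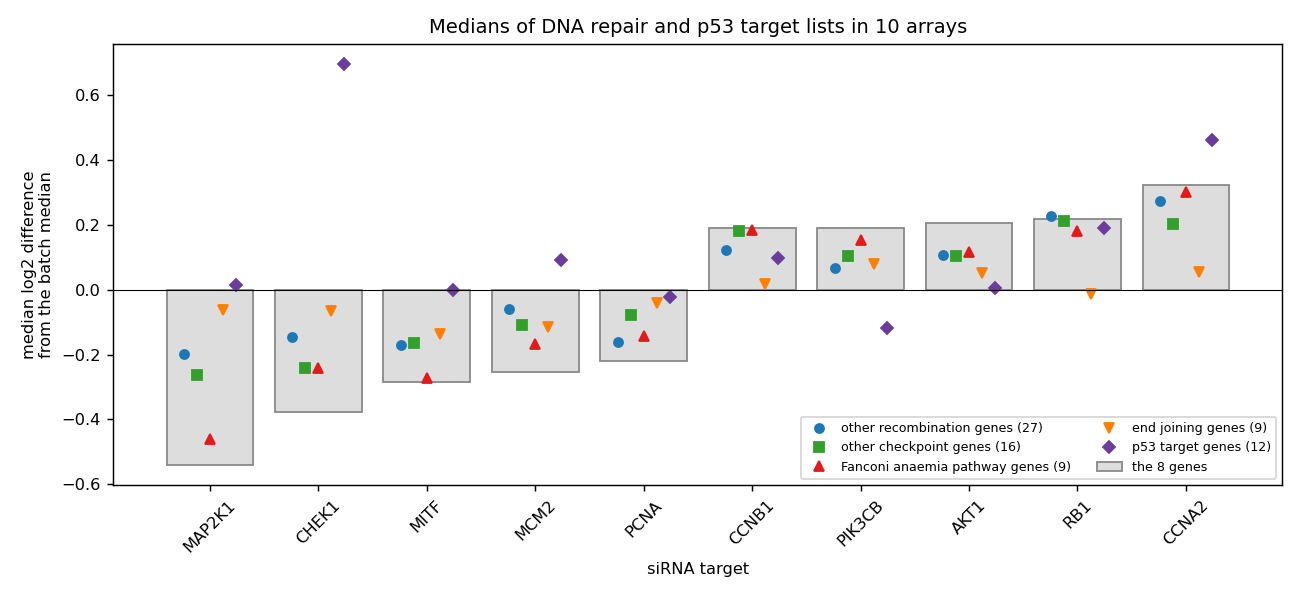
Median log2 difference from the batch median of the 8 genes (bars) and of 5 gene lists (symbols, number of genes in brackets) in the 5 lowest and 5 highest arrays. The end joining list stays between -0.14 and 0.08 in all 10 arrays, and the p53 target list is highest with CHEK1 siRNA (0.70) and CCNA2 siRNA (0.46).

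The batches set the reference for these values, so the levels of the 8 genes were compared between them with limma over 54675 probe sets. Many probe sets differed between any pair of batches, and since different siRNAs lie in each, batch and siRNA set cannot be told apart. Between KD1 and KD2, 4 of 8 genes passed an adjusted p of 0.05, where 44.5% of all probe sets did, so the share was near that of the array as a whole. All 4 were lower in KD1, with differences of -0.46 ± 0.07 for TOPBP1 (SE, limma adjusted p = 2.6e-07), -0.26 for EXO1, -0.24 for BLM and -0.24 for MRE11. Between KD3 and KD2, 6 of 8 passed, against 41.8%. In KD3 the difference was -0.76 ± 0.11 for EXO1 (SE, limma adjusted p = 2.42e-07), -0.64 for BLM, -0.49 for TOPBP1, -0.38 for BRCA1 and -0.27 for RAD54L.

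RAD54B went the other way and was higher in KD3 than in KD2, by 0.27 ± 0.07 (SE, limma adjusted p = 0.00225). Its levels ran from 8.25 to 8.58 in KD3 with a median of 8.41, and from 7.74 to 8.53 in KD2 with a median of 8.16, so the batches overlapped. Between KD3 and KD1, 4 of 8 passed, against 48.1%: EXO1 (-0.50), BLM (-0.40) and BRCA1 (-0.28) were lower in KD3 and MRE11 (0.25) was higher. CHEK1 passed in none of these 3 contrasts, with 0.0515 as its smallest adjusted p in limma (KD1 against KD2). Among probe sets above noise alone it did pass in that contrast (limma adjusted p = 0.0365), as did 5425 of the 7613 tested. For CHEK1, the KD2 group includes the array of its own siRNA, at 7.68. The SD of CHEK1 was 0.31 over all of KD2 and 0.17 over the other KD2 arrays. A contrast without that array was not tested. With array medians subtracted, EXO1 between KD1 and KD2 (limma adjusted p = 0.0665) and MRE11 between KD3 and KD1 (0.0668) no longer passed.

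**Figure D5:**
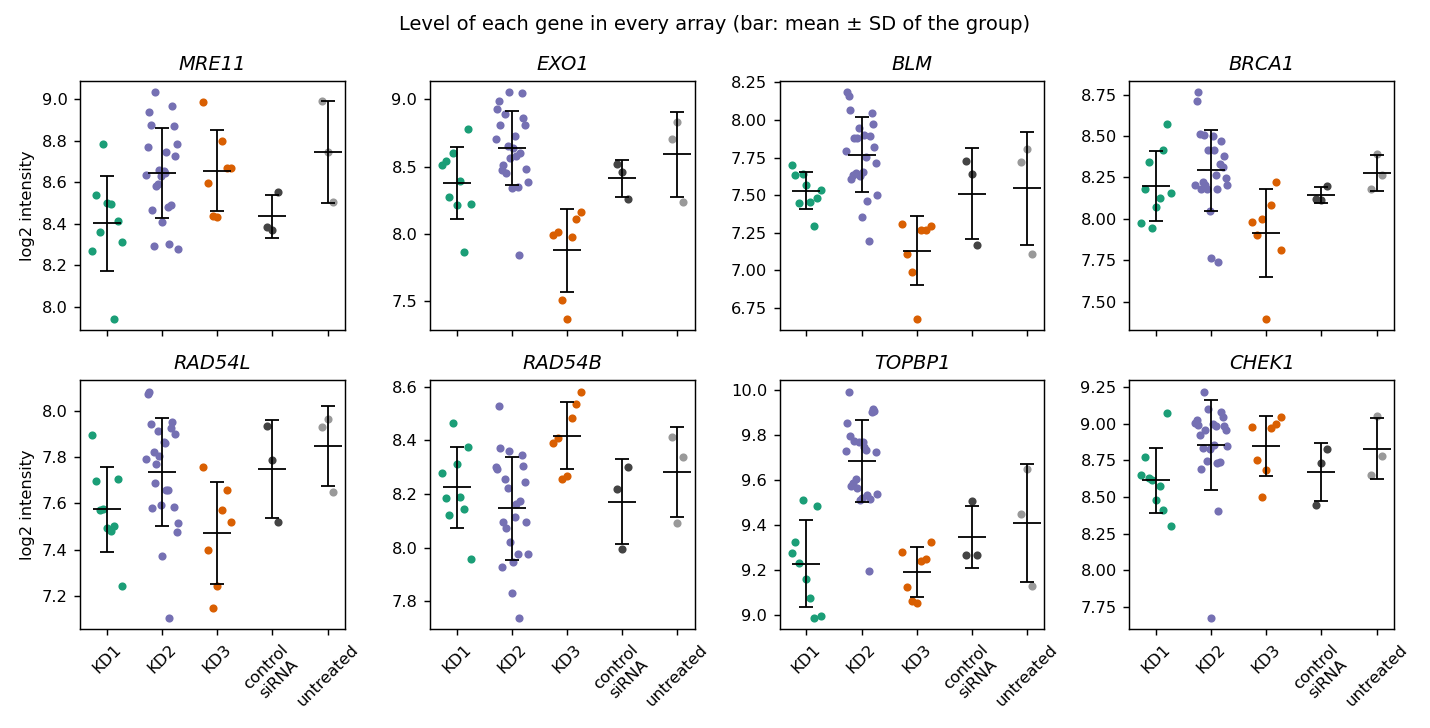
Level of each gene (log2 intensity; each panel has its own scale) in every array of KD1 (9), KD2 (23), KD3 (7), control siRNA (3) and untreated (3), with the mean and SD of each group. EXO1 and BLM are lowest in KD3, with means of 7.88 and 7.13, while RAD54B is highest there with 8.42, and the lowest CHEK1 point in KD2, 7.68, is the array of its own siRNA.

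Control siRNA arrays were compared with untreated arrays to see what transfection, with its change of medium, did to these genes. No difference passed the test. MRE11 was at 8.39, 8.37 and 8.55 in the control siRNA arrays and at 8.99, 8.74 and 8.50 in the untreated ones. That was the largest difference among the 8, -0.31 ± 0.16 (SE, n = 3 and 3, limma adjusted p = 0.9999), and the groups overlapped. CHEK1 was at 8.45, 8.73 and 8.83 with control siRNA and at 8.65, 9.06 and 8.78 untreated. EXO1 was at 8.52, 8.46 and 8.26 against 8.70, 8.83 and 8.24. The groups overlapped for CHEK1 and EXO1 too. For MRE11 and EXO1 the overlap rested on the near-identical arrays numbered 3. Without those arrays, every control siRNA value of MRE11 and EXO1 lay below every untreated one, while CHEK1 still overlapped. The overlap of MRE11 and EXO1 is therefore no evidence that the groups were alike.

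All 8 estimates were below 0, down from BLM at -0.03, and 0 of 54675 probe sets (0%) passed an adjusted p of 0.05 in limma, with 97 at an unadjusted p under 0.05. BLM was at 7.73, 7.64 and 7.17 with control siRNA and 7.72, 7.81 and 7.11 untreated, the lowest value of each group being that of the near-identical arrays numbered 3. Without both of those arrays the differences were -0.49 for MRE11, -0.28 for EXO1, -0.26 for CHEK1, -0.17 for BRCA1, -0.16 for TOPBP1, -0.15 for RAD54B, -0.09 for RAD54L and -0.08 for BLM. Again 0 probe sets passed in limma, with 1135 at an unadjusted p under 0.05. With the replicate number as a block, limma gave 1643 probe sets with an unadjusted p below 0.05 and 0 after adjustment, and with the block but without the arrays numbered 3 these counts were 3465 and 0.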

How the data were processed

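Conditions came from the sample labels and batches from the study's list of siRNA targets. The authors normalised the arrays with RMA, whose version is not given in the sources used here, and deposited linear intensities, which were taken to log2 here with no further normalisation. The median log2 intensity of an array lay between 5.06 and 5.15. Arrays have no read depth. The noise limit followed the study's methods, 1.5 times the BioB (3' end) spike-in median. Of 54675 probe sets, 41097 had 1 gene name in GEO's platform annotation, 1801 had several and 11777 had none.

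The 9 genes, the gene lists and the comparisons were chosen with earlier results of these data known. Named are all members with their lowest and highest arrays, the 5 arrays at each end by the 8-gene median and that of CHEK1, the 3 genes nearest to each member by rho, the 3 highest and 3 lowest of each repair list, and CDKN1A in the CHEK1 array. Genes named beyond this rule (GDF15, RAD50, the markers and further low or high arrays of a member) were added after their values were seen. Correlations are Spearman's rho on log2 values centred on the batch median, so an array that is the median of its batch is at 0. Comparisons between groups of arrays used limma 3.58.1 in R 4.3.3 with Benjamini-Hochberg adjustment over all probe sets. The same steps were run on simulated data with independent noise, without pairing or near-identical arrays. Recovery in that run is not given here, so it is no measure of power for these arrays. The other steps ran in numpy 2.4.6, pandas 2.3.3 and scipy 1.17.1 under Python 3.11.15. The deviations of control siRNA and untreated arrays from their group means correlated within each replicate number (0.580, 0.671 and 0.890). The last value is that of the near-identical arrays. Because the deviations within a group sum to 0, those arrays raise the other values as well. The correlations therefore cannot decide whether arrays were paired by number, and the replicate block is given only as an alternative. Alternatives varied the reference level, the probe set, the noise filter, the scaling, the replicate block, the arrays used and the correlation.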

Additional observations from a re-analysis of the deposited data

How the results depend on the processing

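No array median of the 8 genes named above changed sign under any alternative. Those that moved by over 0.15, the pooled SD of the replicated groups, did so under a changed reference level. With the mean of all 3 control siRNA arrays as reference, the MAP2K1 array was at -0.36, CCNB1 at 0.38, PIK3CB at 0.47, AKT1 at 0.43 and CCNA2 at 0.54. Without control siRNA array 3 in that mean, MAP2K1 was at -0.37, MITF at -0.48, PCNA at -0.38, CCNB1 at 0.36, PIK3CB at 0.43, AKT1 at 0.43 and CCNA2 at 0.49. With no batch centring, MITF was at -0.44, MCM2 at -0.40, PCNA at -0.39 and AKT1 at 0.37. Smaller shifts that still changed a value by over 1.5 times were RB1 at 0.09 and PIK3CB at 0.33 with no batch centring, CHEK1 at -0.25 against control siRNA, and CHEK1 at -0.24, AKT1 at 0.12 and CCNB1 at 0.06 with only genes above noise. Values lower past the fold numbered 8 to 18 over the alternatives. Those higher past it, 0 as reported, numbered 20 against the control siRNA arrays (16 without array 3), 6 with no batch centring, 1 with the mean over all probe sets of a gene and 1 with array medians subtracted. The share over all genes is not given for these alternatives. These counts, the median without CHEK1, the reference without control siRNA array 3, the block without the arrays numbered 3, the correlations with the cell cycle lists without the MAP2K1 and CHEK1 arrays, and the correlations among the genes without the CHEK1 array or in KD1 or KD3 alone were added after seeing the data. KD1 alone gave 13 pairs at a rho of 0.5 or more, and the cause was not tested.

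The replicate block left 0 of 8 genes called between control siRNA and untreated (adjusted p from 0.874 to 0.953 in limma), as did every other alternative of that comparison. Leaving out arrays turned the sign for BLM (-0.25 to 0.14), RAD54L (-0.20 to 0.013) and TOPBP1 (-0.20 to 0.056). Where a group was left with fewer arrays, the spread was pooled over both groups. Among probe sets above noise, which leave 3 members to test, 3 genes were called between KD1 and KD2, CHEK1 now among them, 1 between KD3 and KD2 and 1 between KD3 and KD1. Of all 7613 probe sets above noise, 5425, 5825 and 6046 were called in the same contrasts. CHEK1 between KD3 and KD2, not called, turned to 0.0019 with array medians subtracted and to 0.048 with its probe set of largest variance. CHEK1 in its own array was not the lowest by the dim probe set 229423_at (exact rank test, p = 0.435). The signal over background limits what can be said of BLM, RAD54L, BRCA1, RAD54B and EXO1.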
